A study of Drosophila melanogaster with 15 samples.

Results

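Glia of the fly head were followed through 9 genes that are widely used as markers of glial cells in Drosophila melanogaster: repo, moody, loco, Gli, nrv2, wrapper, alrm, Eaat1 and Gs2. The genes were looked up by their FlyBase symbols, and they were chosen with earlier results of these data known. All 9 were found among the 17453 genes counted, and all 9 passed the filter on low counts in every comparison, with at least 68 reads in every library.

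Heads of naive 5-day-old males of 6 strains gave 15 libraries. CBS, which encodes cystathionine beta-synthase, was deleted in strains CBS-/-(5), with 2 libraries, and CBS-/-(8), with 3. Both CBS and CSE, the gene of cystathionine gamma-lyase, were deleted in strains CBS-/-CSE-/-(1), with 3 libraries, and CBS-/-CSE-/-(2), with 2, called the double deletion below. CSE alone was deleted in strain CSE-/-, with 3 libraries, and the control, WT, had 2. Both enzymes belong to the transsulfuration pathway and release hydrogen sulfide, and the study asked how their loss bears on learning and memory. WT is the Bloomington strain 58492, which carries y1, w1118 and DNAlig4169 and, at the site ZH-2A, the transgene M{Act5C-Cas9.P. RFP-}, in which the broadly active actin 5C promoter drives Cas9. The deletion strains were made by CRISPR/Cas9, and like WT they carry mutations in yellow and white. Each library pooled about 100 whole heads, so glia were read together with neurons, eyes, fat body and muscle and were not isolated.

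Insect glia fall into layers with separate tasks. Perineurial and subperineurial glia form the blood-brain barrier, which is sealed by septate junctions, cortex glia wrap the cell bodies of neurons, ensheathing glia border the neuropil, and astrocyte-like glia send fine processes into it and clear neurotransmitter from synapses. The homeodomain factor Repo is made by almost all glia outside the midline. In the barrier, the G protein-coupled receptor Moody acts with the RGS protein Loco, while Gliotactin, the product of Gli, holds together the corners where 3 cells meet, and Nrv2 is a beta subunit of the sodium pump found at septate junctions. Wrapper is an immunoglobulin-family adhesion protein of cortex and midline glia, and alrm, which encodes a leucine-rich repeat protein, marks astrocyte-like glia. Eaat1 takes up glutamate from the synaptic cleft and Gs2, a cytosolic glutamine synthetase, turns it into glutamine.

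The libraries held between 6850445 and 21144213 reads on genes, with a median of 10285508. CBS had 3 to 55 counts in the 10 libraries in which it was deleted, against 867 to 1649 in the 5 that kept it, and CSE had 10 to 25 counts in 8 deleted libraries, against 233 to 489 in 7 that kept it. Markers of other cell types moved between strains. The summed level of 7 fat body markers was 279 to 2254 CPM (counts scaled to an equal library size) in the 13 deletion libraries, against 5032 and 6968 CPM in WT, and that of 7 neuronal markers was 129 to 296 CPM, against 267 and 327 CPM in WT. Sums of 8 photoreceptor markers, 37382 to 61084 CPM, lay above the 36781 and 37104 CPM of WT in every deletion library, whereas sums of 7 muscle and 6 haemocyte markers overlapped with WT. None of the 8 photoreceptor markers was called higher than WT in any strain, and 1 was called lower in CBS-/-(5) and in CBS-/-(8). Midgut markers were scarce in CBS-/-(5), with 207 and 526 CPM over 14 genes, against 4625 and 13386 CPM in WT. No marker was at 0 in all libraries, and in whole heads a change in the number of cells of a type cannot be told apart from a change in RNA per cell.

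**Figure D1:**
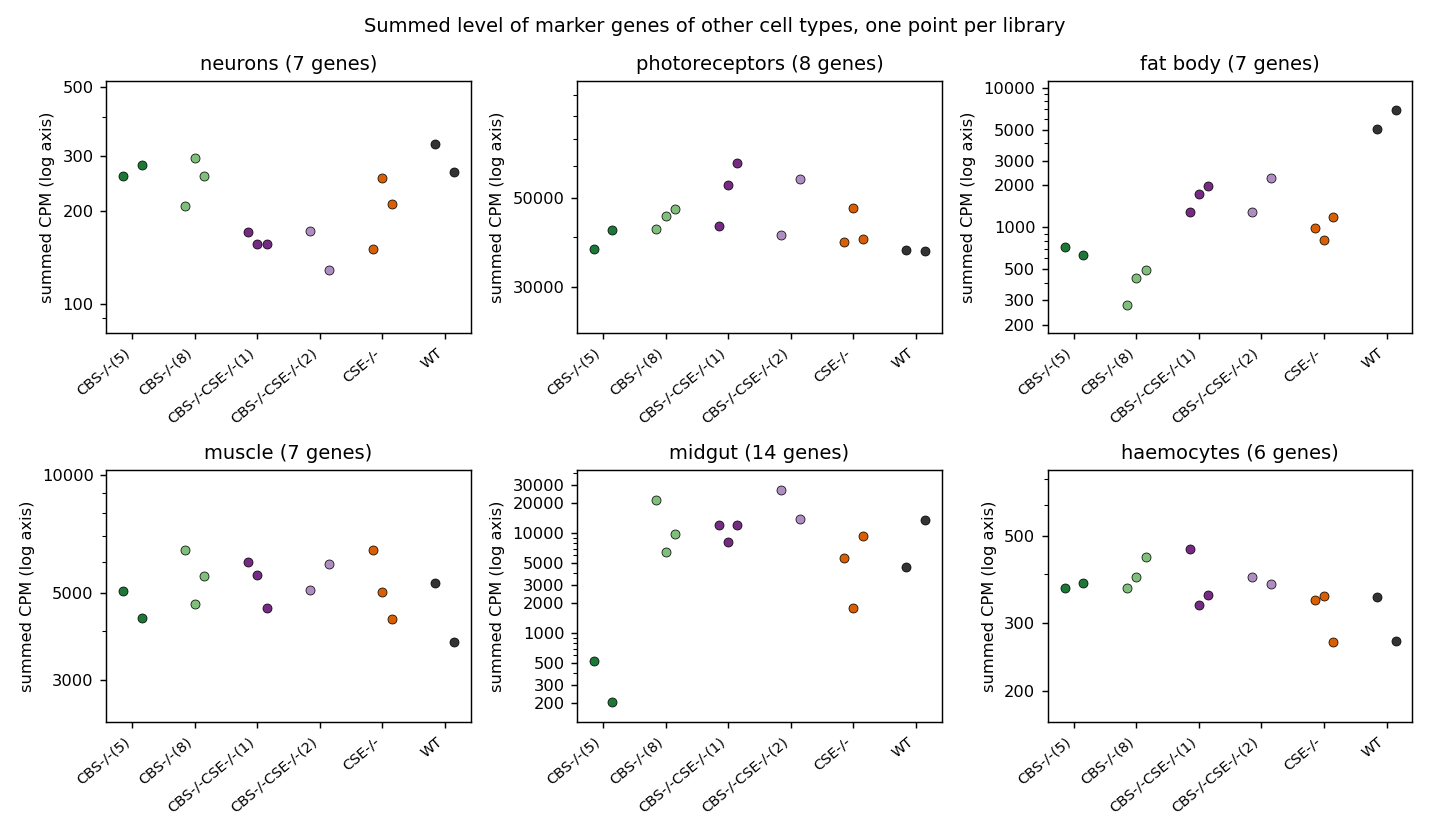
Summed CPM of marker genes of 6 other cell types on a log axis, 1 point per library, by strain. Fat body sums of all 13 deletion libraries lie below both WT libraries, and neuronal sums are lowest in the 5 double deletion libraries (129 to 172 CPM) and in 1 CSE-/- library (151 CPM).

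Among the 9 genes Gs2 was the most abundant by far. Its level per length of transcript was between 358 and 736 RPKM (CPM divided by the kilobases of exon) over the 15 libraries, with a median of 528 RPKM. Next came alrm with 64.9 to 160 RPKM, then nrv2 with 22.6 to 52.4 RPKM, wrapper with 15.7 to 30.7 RPKM, Eaat1 with 15.5 to 36.1 RPKM and repo with 9.13 to 17.02 RPKM. The lowest levels were those of moody with 5.96 to 14.5 RPKM, loco with 5.67 to 8.86 RPKM and Gli with 2.48 to 5.59 RPKM. In dm6 Gs2 lies at X:11422832-11430197, alrm at 3R:25381065-25382781, nrv2 at 2L:6789770-6798862, wrapper at 2R:22379637-22382675, Eaat1 at 2L:9333567-9341925, moody at X:2044292-2050120, loco at 3R:22619968-22639387 and Gli at 2L:15756002-15762758. Only Gs2 and alrm, alrm and nrv2, and loco and Gli were neighbours in this order whose ranges did not overlap, and the places of wrapper and Eaat1 and of moody and loco were exchanged in some strains.

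Within a gene the strains lay close to each other. The highest library exceeded the lowest by 1.56-fold for loco and by up to 2.46-fold for alrm. On the scale of log2 CPM the SD over the 15 libraries was 0.20 for loco, 0.25 for wrapper, 0.26 for repo and at most 0.42 for moody, while the median over 9927 genes was 0.41. Only moody, whose libraries of CBS-/-(8) alone ran between 23.5 and 57.1 CPM, thus varied about as much as the typical gene of these heads. The median is over genes of all levels that passed the filter, and no comparison with genes of like level was made.

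**Figure D2:**
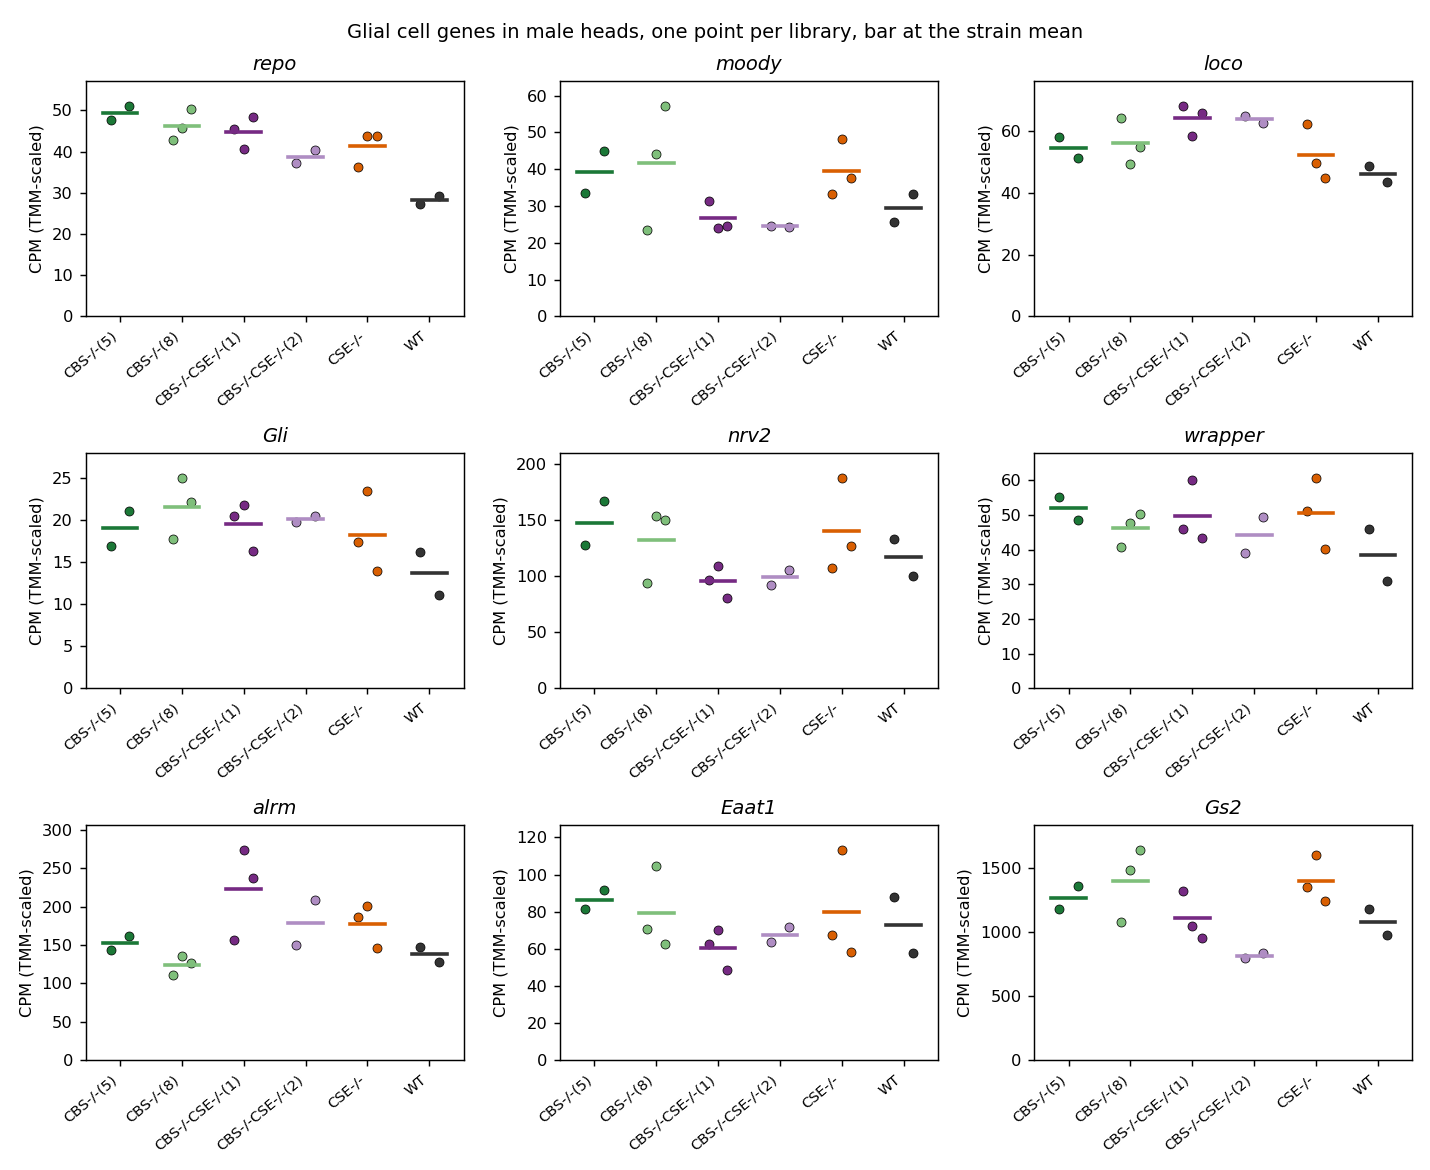
Level of the 9 glial genes in CPM scaled by the trimmed mean of M-values (TMM), 1 point per library, with a bar at the strain mean. For repo all deletion libraries lie above both WT libraries, and for moody and nrv2 the double deletion libraries lie low.

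The gene that differed most clearly from WT was repo, located at 3R:18236192-18239602 of the dm6 genome. Its level was 47.7 and 51.0 CPM in CBS-/-(5) and 42.8, 45.8 and 50.4 CPM in CBS-/-(8). In the double deletion it was 45.6, 40.7 and 48.4 CPM in CBS-/-CSE-/-(1) and 37.3 and 40.3 CPM in CBS-/-CSE-/-(2). CSE-/- libraries had 36.2, 43.8 and 43.8 CPM, and WT libraries 27.3 and 29.3 CPM. All 13 deletion libraries thus lay above both WT libraries. Among the 9 genes this held for repo alone, and among all genes for 3.55%, 352 of 9927, while 5.32% of genes and none of the 9 had all deletion libraries below both. The mRNA of this glial regulator rose in CBS-/-(5) by 0.80 ± 0.16 on the log2 scale (SE), a 1.75-fold difference (adjusted p = 0.0376, edgeR quasi-likelihood test with Benjamini-Hochberg adjustment). The other strains did not pass the threshold of 0.05. Their log2 differences from WT were 0.67 ± 0.25 in CBS-/-(8) (adjusted p = 0.155), 0.64 ± 0.19 in CBS-/-CSE-/-(1) (adjusted p = 0.128), 0.41 ± 0.17 in CBS-/-CSE-/-(2) (adjusted p = 0.248) and 0.52 ± 0.26 in CSE-/- (adjusted p = 0.799). Since all strains were set against the same WT libraries, these differences are not independent of each other.

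The call of repo in CBS-/-(5) was lost in every omission of a library, while its log2 difference stayed at 0.72 to 0.85. Each omission leaves 1 strain with a lone library, which is assumed to vary like the other strain. The values were those without WT replicate 1 (0.72, adjusted p = 0.0546), WT replicate 3 (0.85, adjusted p = 0.104), CBS-/-(5) replicate 1 (0.85, adjusted p = 0.163) or CBS-/-(5) replicate 3 (0.76, adjusted p = 0.240). The call was also lost with no filter on low counts (0.83, adjusted p = 0.0714) and with offsets for transcript length (0.60, adjusted p = 0.0614), all by the same edgeR test. Conversely, repo passed the threshold in CBS-/-(8) without its replicate 1 (0.74, adjusted p = 0.0377) and, when all 15 libraries were fitted together, in CBS-/-(8) (0.69, adjusted p = 0.0268) and in CBS-/-CSE-/-(1) (0.64, adjusted p = 0.0448). Exons of repo overlap CG7156 on the opposite strand over 183 bases, or 6.11% of the exon length, and CG7156 had 10.1 and 11.2 CPM in CBS-/-(5), against 10.3 and 10.1 CPM in WT (log2 difference 0.06 ± 0.20, adjusted p = 0.849). Beside repo, the fat body marker sum was 636 and 728 CPM in CBS-/-(5), against 5032 and 6968 CPM in WT, and the neuronal sums overlapped, although 4 of 7 neuronal markers were called lower. The part of these shifts in the result was not tested.

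Counted over the 9 genes, 1 was called higher and none lower in CBS-/-(5) against WT, where 1.6% of 9206 genes tested were called higher and 7.74% lower. At an unadjusted p under 0.05 it was also 1, beside 30.0% of all genes, and DESeq2 called 1. In the other strains none of the 9 was called by edgeR or by DESeq2. The shares of all genes called higher and lower were 1.76% and 4.67% in CBS-/-(8), 1.15% and 3.03% in CBS-/-CSE-/-(1), 1.1% and 2.36% in CBS-/-CSE-/-(2), and 0.213% and 0.565% in CSE-/-. At an unadjusted p under 0.05 there were 1 in CBS-/-(8), beside 20.0% of all genes, 2 in CBS-/-CSE-/-(1), beside 18.6%, none in CBS-/-CSE-/-(2), beside 21.5%, and none in CSE-/-, beside 7.10%. The median log2 difference of the 9 genes was 0.34 in CBS-/-(5), 0.25 in CBS-/-(8), 0.35 in CBS-/-CSE-/-(1), 0.16 in CBS-/-CSE-/-(2) and 0.35 in CSE-/-, beside 0.00 to 0.04 for all genes tested. All 9 estimates were above 0 in CBS-/-(5) and in CSE-/-, 8 in CBS-/-(8), 6 in CBS-/-CSE-/-(1) and 5 in CBS-/-CSE-/-(2), where 50.3 to 52.9% of all genes were above 0. The strains share the WT libraries in these counts.

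**Figure D3:**
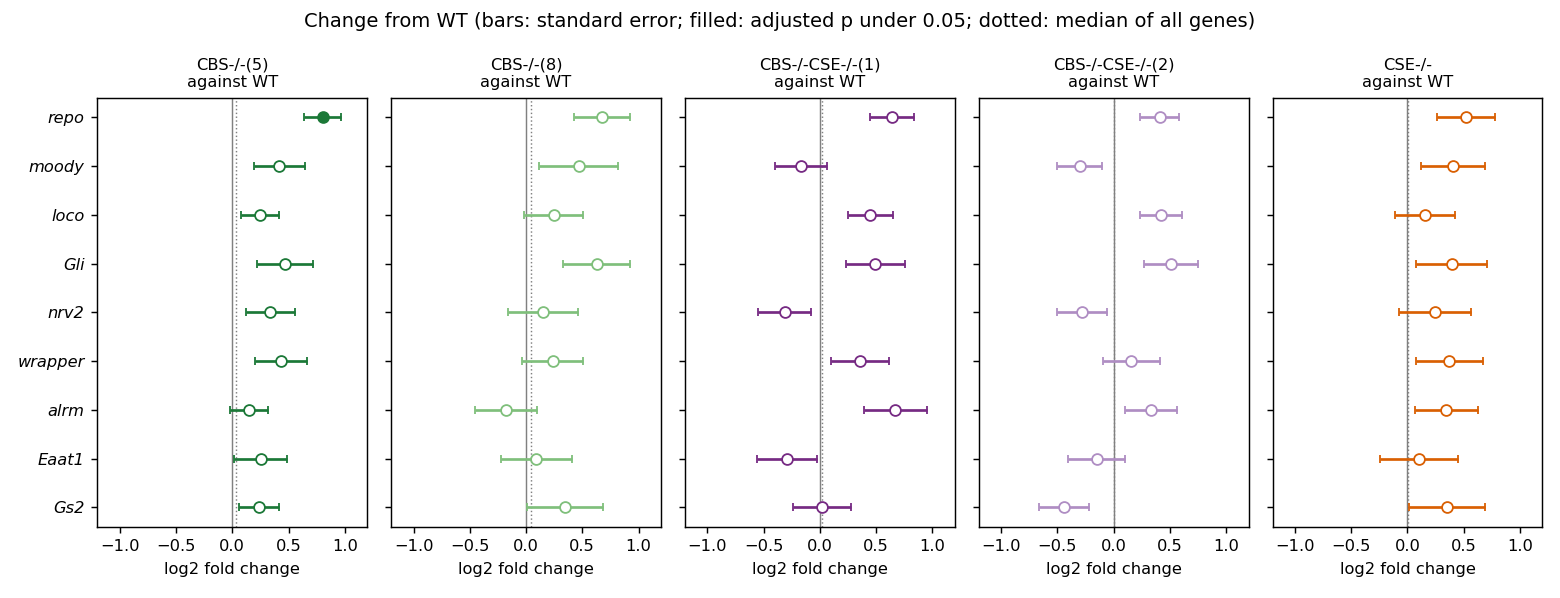
log2 fold change of the 9 glial genes against WT in each of the 5 deletion strains, with standard errors (bars), calls at an adjusted p under 0.05 (filled) and the median of all genes (dotted line). Only repo in CBS-/-(5) is filled, and the estimates of moody, nrv2 and Eaat1 lie below 0 in both double deletion strains.

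The 4 barrier genes were not called in any strain against WT. Gli, which seals tricellular corners, had 16.9 and 21.1 CPM in CBS-/-(5), 17.7, 25.0 and 22.1 CPM in CBS-/-(8), 20.4, 21.8 and 16.3 CPM in CBS-/-CSE-/-(1), 19.7 and 20.5 CPM in CBS-/-CSE-/-(2) and 17.3, 23.5 and 13.9 CPM in CSE-/-, against 16.2 and 11.1 CPM in WT. For Gli 12 of 13 deletion libraries lay above both WT libraries, the exception being CSE-/- replicate 4. Its log2 differences were 0.39 to 0.63 and none was called. For loco, the Moody regulator, 12 of 13 deletion libraries were again above WT, with 44.8 to 68.0 CPM and a median of 58.4 CPM in the deletion strains, against 48.7 and 43.5 CPM in WT. Its log2 differences of 0.15 to 0.45 were not called. An antisense RNA shares 13.5% of the exon length of loco and had at most 1 read in any library. Ambiguous reads were left out and the strand setting of the counting is not given. The level of this RNA and its part in the loco counts therefore cannot be read from this.

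The receptor moody had 33.5 and 44.9 CPM in CBS-/-(5), 23.5, 44.2 and 57.1 CPM in CBS-/-(8), 31.4, 24.1 and 24.5 CPM in CBS-/-CSE-/-(1), 24.7 and 24.4 CPM in CBS-/-CSE-/-(2) and 33.1, 48.1 and 37.6 CPM in CSE-/-, against 25.6 and 33.3 CPM in WT. The highest levels were in CBS-/-(8) and CSE-/-, and the 5 double deletion libraries were within or under the range of WT. For the sodium pump subunit nrv2 the values were 127 and 167 CPM in CBS-/-(5), 94.0, 153 and 149.5 CPM in CBS-/-(8), 96.6, 109 and 80.5 CPM in CBS-/-CSE-/-(1), 91.9 and 106 CPM in CBS-/-CSE-/-(2) and 107, 187 and 127 CPM in CSE-/-, against 133 and 100.1 CPM in WT. Estimates against WT were positive in CBS-/-(5), CBS-/-(8) and CSE-/- and negative in both double deletion strains for moody and nrv2 alike, between -0.31 and 0.47, and none was called.

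The cortex glia gene wrapper was not called either. Its 13 deletion libraries held 39.1 to 60.7 CPM with a median of 48.7 CPM, against 45.9 and 31.0 CPM in WT, and its log2 differences were 0.16 to 0.44 without a call.

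None of the genes of astrocyte-like glia and glutamate handling was called against WT. The astrocyte gene alrm had 143 and 162 CPM in CBS-/-(5), 111, 136 and 126 CPM in CBS-/-(8), 157, 274 and 237 CPM in CBS-/-CSE-/-(1), 149.7 and 208 CPM in CBS-/-CSE-/-(2) and 187, 201 and 146 CPM in CSE-/-, against 148 and 127 CPM in WT. The 3 highest libraries were replicates 2 and 3 of CBS-/-CSE-/-(1) and replicate 4 of CBS-/-CSE-/-(2). Its log2 difference from WT was 0.67 ± 0.28 in CBS-/-CSE-/-(1) (adjusted p = 0.251) and -0.18 ± 0.28 in CBS-/-(8) (adjusted p = 0.736). The glutamate transporter Eaat1 had 48.5 to 113 CPM in the deletion strains with a median of 69.9 CPM, against 88.0 and 57.5 CPM in WT, and only 3 of 13 deletion libraries were above both WT libraries. Gs2 had 1177 and 1357 CPM in CBS-/-(5), 1082, 1484 and 1642 CPM in CBS-/-(8), 1318, 1045 and 957 CPM in CBS-/-CSE-/-(1), 798 and 835 CPM in CBS-/-CSE-/-(2) and 1353, 1606 and 1241 CPM in CSE-/-, against 1177 and 976 CPM in WT. The lowest level of this synthetase was in both libraries of CBS-/-CSE-/-(2), at 0.74-fold of WT (log2 difference -0.44 ± 0.22, adjusted p = 0.309).

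Libraries of a strain that all lay above both WT libraries were found for 5 of the 9 genes in CBS-/-(5), beside 32.6% of all genes tested, for 3 in CBS-/-(8), beside 19.4%, for 4 in CBS-/-CSE-/-(1), beside 19.2%, for 4 in CBS-/-CSE-/-(2), beside 31.2%, and for 2 in CSE-/-, beside 11.9%. Both libraries of CBS-/-CSE-/-(2) lay below WT for moody and Gs2, beside 24.4% of all genes. In the other strains this held for none of the 9, beside 31.7% of all genes in CBS-/-(5), 17.9% in CBS-/-(8), 18.9% in CBS-/-CSE-/-(1) and 12.2% in CSE-/-.

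The direct comparison of genotypes, which leaves WT out, asked what the deletion of CSE added to that of CBS. Each genotype was 2 strains, with 3 and 2 libraries, pooled as 1 group. Libraries of 1 strain are not independent samples of the genotype. In it 2 of the 9 genes were lower and 1 was higher in the 5 double deletion libraries than in the 5 CBS-/- libraries, while 14.4% of 9230 genes tested were called lower and 13.3% higher. DESeq2 called 3, and 5 had an unadjusted p under 0.05, as did 46.6% of all genes. The barrier receptor moody was lower by 0.67 on the log2 scale, with 25.8 ± 3.13 CPM in the double deletion and 40.6 ± 12.7 CPM in CBS-/- (SD, n = 5 each; SE of the log2 difference 0.20, adjusted p = 0.0368 in edgeR). The sodium pump subunit nrv2 was lower by 0.53, with 96.7 ± 11.3 CPM in the double deletion and 138 ± 28.6 CPM in CBS-/- (SE 0.16, adjusted p = 0.0391 in edgeR). The astrocyte gene alrm was higher by 0.59, with 205 ± 52.9 CPM in the double deletion and 136 ± 18.98 CPM in CBS-/- (SE 0.18, adjusted p = 0.0401 in edgeR). For each of these 3 genes the groups overlapped, and none of the 9 had groups apart, beside 5.93% of all genes in the lower and 5.58% in the higher direction. The overlap of moody and nrv2 came from CBS-/-(8) replicate 1, which had 23.5 and 94.0 CPM, while that of alrm came from CBS-/-CSE-/-(1) replicate 1 and CBS-/-CSE-/-(2) replicate 2, with 157 and 149.7 CPM.

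Gs2 and Eaat1, which handle glutamate, had log2 differences of -0.46 ± 0.18 (adjusted p = 0.0703) and -0.39 ± 0.17 (adjusted p = 0.0876) in the edgeR fit. Those of loco, repo, Gli and wrapper were 0.19, -0.18, -0.07 and -0.04, and none of these 6 genes was called. The median over the 9 genes was -0.18, beside -0.06 for all genes tested. Relative to each other within a library, alrm counts were 5.01 to 11.4 times those of moody in the double deletion, against 2.21 to 4.75 times in CBS-/-. The ratio of alrm to Eaat1 counts was 2.36 to 4.89 in the double deletion, against 1.30 to 2.02 in CBS-/-. Neither pair of ranges overlapped, while the ratio of nrv2 to moody did, at 3.08 to 4.52 in the double deletion, against 2.62 to 4.01 in CBS-/-. The pairs were picked after their values were seen, and they restate the differences above in a form that does not depend on how the libraries were scaled.

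These 3 calls stood near the threshold. By the same edgeR test all were lost with no filter on low counts (adjusted p of 0.0505 to 0.0571), in the fit of all 15 libraries (0.0522 to 0.0721) and with length offsets (0.101 to 0.171), and they were lost with the replicate number as a block, although the numbers did not pair these libraries. Length offsets brought the log2 difference of moody to -0.35, that of nrv2 to -0.26 and that of alrm to 0.43. With strains as separate groups nrv2 and alrm lost their calls in the same test (adjusted p = 0.0530 and 0.0569), and moody kept its call. Leaving out a library ended the call of moody except for CBS-/-CSE-/-(1) replicate 1 (adjusted p = 0.0312) and CBS-/-(8) replicate 1 (adjusted p = 0.00556), and elsewhere its adjusted p was 0.0513 to 0.0885. The call of nrv2 was kept only without CBS-/-(8) replicate 1 (adjusted p = 0.00671) and its adjusted p was 0.0508 to 0.0929 otherwise. That of alrm was kept without CBS-/-CSE-/-(1) replicate 1, CBS-/-CSE-/-(2) replicate 2 or CBS-/-(8) replicate 1 (adjusted p of 0.0264, 0.0389 and 0.0471) and its adjusted p was 0.0622 to 0.0878 otherwise. Beside these genes the neuronal marker sum was 129 to 172 CPM in the double deletion, against 207 to 296 CPM in CBS-/-, with 3 of 7 neuronal markers called lower. The photoreceptor sum was 40465 to 61084 CPM, against 37382 to 46942 CPM, with 1 of 8 markers called lower and none higher. Fat body sums did not overlap, at 1280 to 2254 CPM, against 279 to 728 CPM, though of 6 markers tested 1 was called lower and 1 higher. Midgut sums were 8072 to 26809 CPM, against 207 to 21410 CPM. The part of these shifts in the results was not tested.

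**Figure D4:**
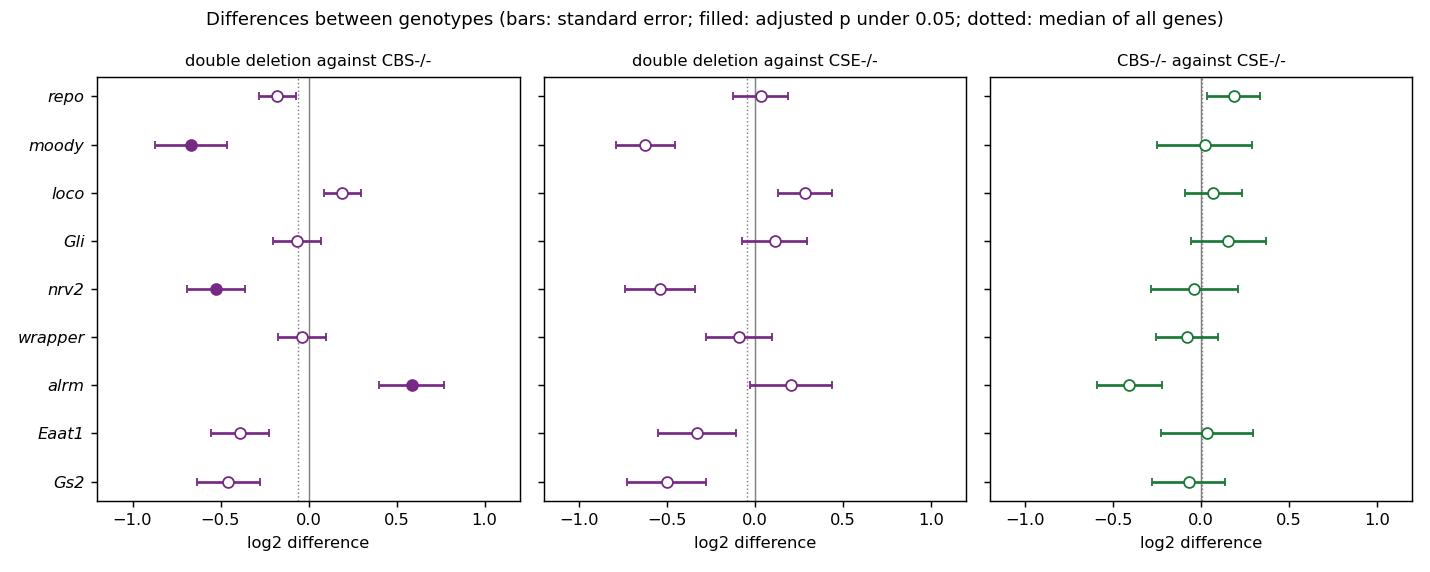
log2 difference of the 9 glial genes between genotypes, with standard errors (bars), calls at an adjusted p under 0.05 (filled) and the median of all genes (dotted line). moody, nrv2 and alrm are filled in the comparison of the double deletion with CBS-/- (5 libraries each), and no gene is filled in the comparisons with CSE-/- (3 libraries).

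Against CSE-/- the double deletion carried the additional loss of CBS. CSE-/- was 1 strain, so here and between the single deletions a difference of that strain cannot be told apart from one of the genotype. None of the 9 genes passed the edgeR threshold, 3 had an unadjusted p under 0.05, beside 19.2% of all genes, and 0.708% of 9603 genes tested were called lower and 1.02% higher. moody came nearest, with 24.1 to 31.4 CPM in the double deletion, against 33.1 to 48.1 CPM in CSE-/-. Its groups did not overlap, as for 5.96% of all genes in this direction (6.82% in the other, with none of the 9), and its log2 difference was -0.62 ± 0.17 (adjusted p = 0.0929). DESeq2 called it (-0.59, adjusted p = 0.0309). The differences of nrv2 and Gs2 were -0.54 ± 0.20 (adjusted p = 0.190) and -0.50 ± 0.22 (adjusted p = 0.258) in edgeR. This comparison and that with CBS-/- share the double deletion libraries.

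Between the single deletions, CBS-/- against CSE-/-, none of the 9 genes was called by edgeR or DESeq2, and none had an unadjusted p under 0.05, beside 11.2% of all genes. Of all 9407 genes tested 0.904% were called lower and 0.617% higher, or 7 and 8 genes with the replicate number as a block, which called none of the 9 either. Groups were apart for none of the 9, beside 4.02% of all genes in the lower and 3.09% in the higher direction. The log2 differences were between -0.41 ± 0.18 for alrm (adjusted p = 0.450) and 0.18 ± 0.15 for repo (adjusted p = 0.720).

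Whether the effect of losing CBS depended on CSE was tested over all 15 libraries as the difference of double deletion and CSE-/- minus the difference of CBS-/- and WT. No glial gene was called by edgeR, where 0.645% of 9927 genes were called lower and 2.72% higher. Of the 9 genes 4 had an unadjusted p under 0.05, beside 24.6% of all genes. They were repo with -0.73 ± 0.20 (adjusted p = 0.0746), Gs2 with -0.85 ± 0.30 (adjusted p = 0.129), moody with -1.08 ± 0.38 (adjusted p = 0.131) and nrv2 with -0.78 ± 0.35 (adjusted p = 0.189). DESeq2 called repo (-0.66, adjusted p = 0.0287) and Gs2 (-0.79, adjusted p = 0.0310). Without CBS-/-(8) replicate 1, the library with the lowest moody level, edgeR called 3 of the 9 lower, repo (-0.75, adjusted p = 0.0390), moody (-1.22, adjusted p = 0.0243) and Gs2 (-0.93, adjusted p = 0.0482). In every other omission of a library edgeR called none of the 9. For moody a larger difference follows from leaving out its lowest CBS-/- value, and over all 15 omissions its difference was -1.29 to -0.89.

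Strains of 1 genotype did not differ in any of the 9 genes by edgeR or DESeq2, and no unadjusted p was under 0.05, beside 9.76% of all genes in the CBS-/- pair and 5.46% in the double deletion pair. The widest log2 differences were 0.28 for alrm between CBS-/-(5) and CBS-/-(8), where 3.15% of genes were called lower and 0.711% higher, and 0.45 for Gs2 between CBS-/-CSE-/-(1) and CBS-/-CSE-/-(2), where 0.218% were called lower and 0.135% higher. Libraries of the first strain all lay above those of the second for alrm in the CBS-/- pair, beside 12.4% of all genes (11.3% below), and for repo and Gs2 in the double deletion pair, beside 8.06% (9.23% below).

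Wider lists of glial genes were read in the same edgeR fits, where the shares of all genes called lower than WT were 7.74% in CBS-/-(5), 4.67% in CBS-/-(8), 3.03% in CBS-/-CSE-/-(1), 2.36% in CBS-/-CSE-/-(2) and 0.565% in CSE-/-, and those called higher 0.213 to 1.76%. Of 18 genes of barrier glia and septate junctions, 1 was lower than WT and none higher in 4 of the 5 strains. In CBS-/-(5) 1 was called higher by DESeq2, with length offsets and with the replicate block. There 3 had an unadjusted p under 0.05 in this direction, beside 30.0% of all genes in either direction. The gene called lower was Galphao, a G protein alpha subunit active in barrier glia and in neurons, with log2 differences of -0.91 in CBS-/-(5) (adjusted p = 0.0425), -1.19 in CBS-/-(8) (adjusted p = 0.0461), -1.55 in CBS-/-CSE-/-(1) (adjusted p = 0.0192) and -1.67 in CBS-/-CSE-/-(2) (adjusted p = 0.0488) by edgeR. Its level was 4.59 to 11.8 CPM in 12 of 13 deletion libraries and 14.8 CPM in CSE-/- replicate 4, against 18.3 and 19.1 CPM in WT. All 13 deletion libraries thus lay below both WT libraries, as for 5.32% of all genes. In CSE-/- the difference was -0.78 (adjusted p = 0.719). Beside it, 4 of 7 neuronal markers were called lower in each of the same 4 strains and none in CSE-/-, with a median log2 difference of all 7 between -1.58 and -1.004 in those strains and of -0.97 in CSE-/-, and their part in the result was not tested. The calls of Galphao were lost without either WT library, which leaves a lone WT library assumed to vary like the deletion strain, with adjusted p of 0.0596 and 0.137 in CBS-/-(5), 0.0996 and 0.276 in CBS-/-(8), 0.0834 and 0.0809 in CBS-/-CSE-/-(1) and 0.130 and 0.137 in CBS-/-CSE-/-(2). They were also lost without CBS-/-(5) replicate 1 or 3, CBS-/-(8) replicate 5 and CBS-/-CSE-/-(1) replicate 2, each in its own comparison (adjusted p of 0.272, 0.136, 0.116 and 0.110). Other alternatives ended the call of Galphao in CBS-/-(5) with no filter (0.0899) or in the fit of all 15 libraries (0.193), in CBS-/-(8) in that fit (0.0543) or after thinning to the smallest library (0.0721), and in CBS-/-CSE-/-(1) with length offsets (0.0852). Over all omissions the log2 differences were -1.03 to -0.80 in CBS-/-(5), -1.39 to -0.97 in CBS-/-(8), -1.66 to -1.40 in CBS-/-CSE-/-(1) and -2.08 to -1.34 in CBS-/-CSE-/-(2).

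None of the 11 astrocyte and ensheathing glia genes matched, of 12 listed, was called against WT in any strain by edgeR. In CBS-/-(5) 3 had an unadjusted p under 0.05, all higher. DESeq2 and the replicate block each called 2 higher, while a minimum of 10 counts, thinning and length offsets each gave 1. In the other strains, where DESeq2 called none, the unadjusted counts were 4 higher in CBS-/-(8), none in CBS-/-CSE-/-(1), 3 lower in CBS-/-CSE-/-(2) and 1 higher in CSE-/-. Of all genes, in either direction, 30.0% passed this cut in CBS-/-(5), 20.0% in CBS-/-(8), 18.6% in CBS-/-CSE-/-(1), 21.5% in CBS-/-CSE-/-(2) and 7.10% in CSE-/-.

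Of 14 cortex glia and metabolism genes, 13 were tested, and 2 were called. By strain this was 1 lower in CBS-/-(5), 1 lower and 1 higher in CBS-/-CSE-/-(1) and none in the others. DESeq2 called 3 lower in CBS-/-(5), 2 lower in CBS-/-(8), 2 higher in CBS-/-CSE-/-(1) and 2 higher in CBS-/-CSE-/-(2). Gs1, the mitochondrial glutamine synthetase and paralogue of Gs2, was higher in CBS-/-CSE-/-(1), with 761, 929 and 946 CPM, against 225 and 186 CPM in WT (log2 difference 2.07 ± 0.25, adjusted p = 0.00639 in edgeR). In CBS-/-CSE-/-(2) its libraries had 299 and 599 CPM and did not pass (1.08, adjusted p = 0.160), although it was called by DESeq2 (adjusted p = 0.0434), with no filter on low counts (0.0349) and in the fit of all 15 libraries (0.0477). There the omission of single libraries moved it between 0.51 and 1.49, the highest without its own replicate 2. The lipocalin gene NLaz was lower in CBS-/-(5), with 73.6 and 74.5 CPM, against 171 and 212 CPM in WT (-1.37, adjusted p = 0.0109), and in CBS-/-CSE-/-(1), with 51.1, 78.7 and 85.9 CPM (-1.44, adjusted p = 0.0285). In CBS-/-(8) it had 115.1, 61.3 and 92.4 CPM and did not pass (-1.13, adjusted p = 0.0639), but was called by DESeq2 (0.0148), with no filter (0.0128) and in the fit of all 15 libraries (0.0440). CBS-/-CSE-/-(2), of the same genotype as CBS-/-CSE-/-(1), had 226 and 196 CPM. Of 6 fat body markers tested beside NLaz, 4 were called lower in CBS-/-(5), 3 in CBS-/-(8), 4 in CBS-/-CSE-/-(1), 3 in CBS-/-CSE-/-(2) and 1 in CSE-/-. In CBS-/-(8), CBS-/-CSE-/-(1) and CBS-/-CSE-/-(2) 1 each was called higher. The part of these markers in the result was not tested. Gs1 lost its call in CBS-/-CSE-/-(1) without WT replicate 1 or 3 (adjusted p of 0.0578 and 0.0696), NLaz in CBS-/-(5) without WT replicate 3 (0.0652) and NLaz in CBS-/-CSE-/-(1) without WT replicate 1 or 3 or its own replicate 2 (0.0889, 0.153 and 0.129). The log2 differences over all omissions were 1.95 to 2.20 for Gs1, and -1.55 to -1.21 and -1.59 to -1.26 for NLaz in these strains.

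Of 4 genes for transmitter recycling in the eye and lamina, 3 were tested. The transporter gene ine was lower in CBS-/-(8), with 55.6, 33.1 and 39.8 CPM, against 103 and 102 CPM in WT (log2 difference -1.30 ± 0.29, adjusted p = 0.0210 in edgeR), and had 106 to 172 CPM in all other deletion libraries. This call was lost without WT replicate 1, WT replicate 3 or CBS-/-(8) replicate 5 (adjusted p of 0.0659, 0.115 and 0.0965), with differences of -1.51 to -1.14 over all omissions. Of 5 regulators of glial fate, 3 were tested, and pros, a homeodomain factor of neural progenitors, neurons and some glia, was lower in CBS-/-(5), with 17.7 and 14.6 CPM (-0.96, adjusted p = 0.0351), and in CBS-/-CSE-/-(1), with 11.8, 11.5 and 18.1 CPM (-1.21, adjusted p = 0.0410), against 33.0 and 29.7 CPM in WT. In CBS-/-(5) this was lost without any 1 of the 4 libraries (adjusted p of 0.0662 to 0.250), and in CBS-/-CSE-/-(1) without WT replicate 1 or 3 or its own replicate 1 or 2 (0.203, 0.122, 0.0883 and 0.201). Over all omissions its differences were -1.10 to -0.82 and -1.44 to -1.09 in these strains. The call of pros was also lost in CBS-/-(5) with no filter (0.0834) and in CBS-/-CSE-/-(1) with length offsets (-0.54, adjusted p = 0.481), and in both strains in the fit of all 15 libraries, while DESeq2 called pros lower in CBS-/-CSE-/-(2) too (-1.37, adjusted p = 0.00418). The 4 neuronal markers called lower stand beside pros as well, in both strains, and their part was not tested. CSE-/- had no call in any list.

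Between the double deletion and CBS-/- more of these genes passed. Of the 18 barrier genes 7 were lower and 1 higher, with a median log2 difference of -0.40, beside -0.06 for all genes and the shares of 14.4% lower and 13.3% higher given above. The 7 were Galphai, Cont, ogre, cora, Nrx-IV, Atpalpha and sinu, with differences of -0.79 to -0.51. Cont, Nrx-IV, cora, sinu and the sodium pump alpha subunit Atpalpha build septate junctions, also in epithelia, and Atpalpha is widespread in neurons. Mdr65, a drug efflux pump of the barrier, was higher by 0.42 ± 0.14 (adjusted p = 0.0415 in edgeR). Of 11 astrocyte and ensheathing genes 5 were lower and none higher, with a median of -0.49. They were gb, Eaat2, Gat, ced-6 and htl. The transporters Eaat2, for acidic amino acids, and Gat, for GABA, differed by -0.93 ± 0.17 (adjusted p = 0.0103) and -0.74 ± 0.205 (adjusted p = 0.0316). The cortex and metabolism list joins genes of cortex glia with genes of glial metabolism, so its counts are not those of 1 glial type. Of its 13 genes tested 5 were higher and none lower, with a median of 0.34. They were Gs1 with 1.22 ± 0.26 (adjusted p = 0.0187), kumpel, bumpel, PyK, which encodes pyruvate kinase, and the cortex glia gene Cyp4g15 with 0.66 ± 0.19 (adjusted p = 0.0324). The transmitter-conjugating enzyme gene e was higher (0.46, adjusted p = 0.0434), and the fate regulators pnt and ttk were lower (-0.67 and -0.77, adjusted p = 0.0422 and 0.0352). These genes were picked for naming after their values were seen, and PyK and ced-6 act far beyond glia. The opposite directions of the astrocyte and ensheathing list and of the cortex and metabolism list are therefore not a contrast between glial types.

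**Figure D5:**
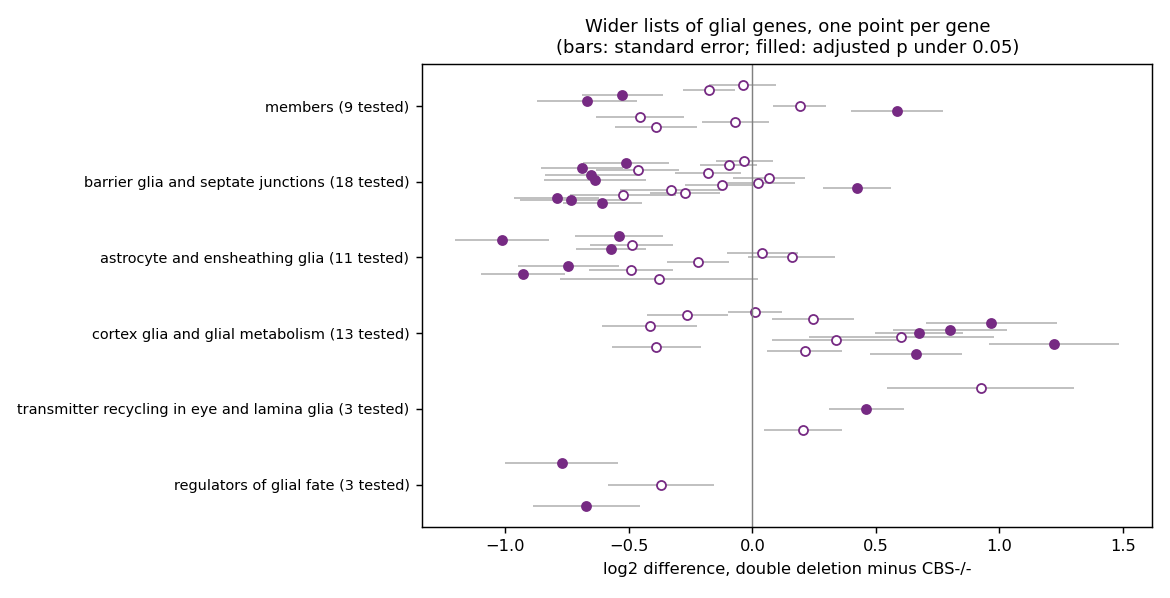
log2 difference of each tested gene of the 9 glial genes and of 5 wider lists between the 5 double deletion and the 5 CBS-/- libraries, with standard errors (bars) and calls at an adjusted p under 0.05 (filled). Calls in the barrier list lie at 7 below and 1 above 0, in the astrocyte list at 5 below 0 and in the cortex and metabolism list at 5 above 0.

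These list counts depended on the fit and on single libraries. No gene of the lists was called with the replicate number as a block, where 21 of all 9230 genes tested were lower and 25 higher. Shares of all genes are not given for the other fits and omissions. Changes in the list counts below are therefore not results about the lists. In the fit of all 15 libraries 2 barrier genes, 3 astrocyte genes and 3 cortex and metabolism genes were called in these directions, and with length offsets 2, 3 and 5. Called lower among barrier genes were 0 without CBS-/-CSE-/-(2) replicate 4 or CBS-/-(8) replicate 2, 1 without CBS-/-CSE-/-(1) replicate 2 or 3, CBS-/-(5) replicate 3 or CBS-/-(8) replicate 5, 4 without CBS-/-(5) replicate 1 and 10 without CBS-/-(8) replicate 1. The count of astrocyte genes called lower was 2 to 7 over the same omissions, under 4 for all but CBS-/-CSE-/-(1) replicate 1, CBS-/-CSE-/-(2) replicate 2 and CBS-/-(8) replicate 1. For cortex and metabolism genes called higher it was 1 to 5, and under 4 without any 1 of the same 7 libraries. Single genes differed in this. Gs1 and Eaat2 passed in 19 of 20 alternatives each, all but the replicate block, with log2 differences of 1.07 to 1.42 and of -1.01 to -0.62 (adjusted p of 7.14e-05 to 0.150 and of 3.09e-06 to 0.147), while Gat and Cyp4g15 passed in 11, e in 10 and Mdr65 in 8. Gs1 was not raised in every double deletion library. It had 761 to 946 CPM in CBS-/-CSE-/-(1), but 299 CPM in CBS-/-CSE-/-(2) replicate 2, within the 274 to 320 CPM of CBS-/-.

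Genes with profiles most like those of the 9 were looked for among all genes. Likeness was the root mean square difference over the 15 libraries between log2 CPM profiles, each centred on its own mean, so genes that vary little come out near each other. For repo the nearest of 9927 genes were Ack, oxt and GlcAT-I, at 0.08 to 0.12. For loco they were Wdr59, Exo84 and Pxn (0.07 to 0.09), for Gli CG33144, c11.1 and Naa30A (0.12 to 0.13), for nrv2 Snrk, CG9727 and uzip (0.11 to 0.13), and for moody CG5445, Vps35 and Tak1 (0.13 to 0.14). For wrapper they were Sfxn2, CG7332 and mxt (0.12 to 0.14), for Eaat1 Ntan1, MESK2 and CG42322 (0.14 to 0.16), for Gs2 Vps35, CG17068 and sip3 (0.13 to 0.14) and for alrm CG13603, mlt and CG34367 (0.17 to 0.18). No glial gene of the 9 was among the 3 nearest of another. The highest place was that of nrv2 for Eaat1, rank 94 at 0.22, and moody and Gs2 stood at ranks 130 and 286 of each other at 0.22, whereas the member nearest to repo, Gli, came at rank 832.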

How the data were processed

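Per the paper's methods, the authors trimmed reads with Trimmomatic and aligned them to dm6 with STAR in the PPLine pipeline. The deposited values are raw counts of reads per gene, and the labels' processing notes also name featureCounts and SAMtools. The strand setting and annotation release of the counting are not given in the sources used here. Libraries were made from polyadenylated RNA with a directional kit. Reads not assigned to 1 gene were left out, and ambiguous reads were 5.12 to 8.27% per library. A count of 3, the floor, equals 0.142 to 0.438 CPM.

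Symbols, exon lengths and coordinates came from the Ensembl BDGP6 annotation (17179 of 17453 identifiers matched). Each comparison was fitted on its own libraries in edgeR 4.0.16 (R 4.3.3) with filterByExpr, TMM, the quasi-likelihood test in legacy form and Benjamini-Hochberg adjustment over all genes tested. The threshold was an adjusted p of 0.05, and the SE is the absolute log2 difference over the square root of F. Levels are TMM-scaled CPM, or RPKM between genes, and likeness used log2 CPM with a prior count of 2. Tables and plots were made in Python 3.11.15 (matplotlib 3.10.9, numpy 2.4.6, pandas 2.3.3). Fits were tested on simulated data.

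Samples were grouped by the strain in the labels. Named are the 9 genes, up to 4 genes called against WT per wider list, and the 3 genes nearest to each of the 9. List genes called between the double deletion and CBS-/- are named too, and these were picked after their values were seen. The genes and lists were chosen with earlier results of these data known. Lists were not tested as sets. Counts by edgeR in the main fits stand beside those of all genes. No share of all genes is given for DESeq2 or the other alternatives, apart from some counts with the replicate block. Alternatives were RLE normalization, DESeq2 1.42.0, no filter, a minimum of 10 counts per library, legacy off, all libraries in a joint fit, thinning to the smallest library, length offsets (lowess span 0.3), strains as separate groups, a replicate block, an adjusted p under 0.01 and leaving out each library. Crossed pairing and the alternatives for the interaction were added after seeing the data. The pairing by replicate number came from the labels, and same-numbered libraries of CBS-/- and CSE-/- deviated together (r of 0.222 to 0.304 over 3 pairs).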

Additional observations from a re-analysis of the deposited data

Results flagged for a closer look

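The transporter gene ine differed between the strains of 1 genotype. It had 134 and 140 CPM in CBS-/-(5), against 55.6, 33.1 and 39.8 CPM in CBS-/-(8), a log2 difference of 1.67 ± 0.24 (adjusted p = 0.00611, edgeR quasi-likelihood test). Both strains were set against the same WT libraries, and this direct test of the strains is what singled the gene out. Over 13 alternatives the difference was 1.54 to 1.90 with adjusted p of 1.41e-06 to 0.0509, the last without CBS-/-(8) replicate 5 (1.595), the only alternative in which it was not called.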

How the results depend on the processing

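Of 1084 values of single genes of the 9 under alternatives, 998 kept their direction and side of the threshold, 48 lost a call, 13 gained 1 and 25 changed sign, none of the last past the threshold. Log2 differences that changed sign with length offsets were those against WT of loco in CBS-/-(5) (-0.0095), nrv2 and Eaat1 in CBS-/-(8) (-0.081 and -0.088), Gs2 in CBS-/-CSE-/-(1) (-0.015) and Eaat1 in CSE-/- (-0.023), and those of the double deletion from CBS-/- for repo (0.0089) and Gli (0.29). There wrapper changed sign with RLE (0.000367) and DESeq2 (0.0056). When single libraries were left out, values spanned 0 for Eaat1 against WT in CBS-/-(5) (-0.021 to 0.56), CBS-/-(8) (-0.15 to 0.41), CBS-/-CSE-/-(1) (-0.56 to 0.035), CBS-/-CSE-/-(2) (-0.42 to 0.185) and CSE-/- (-0.20 to 0.43), for moody (-0.35 to 0.042) and Gs2 (-0.14 to 0.149) in CBS-/-CSE-/-(1), for wrapper (-0.090 to 0.47) and NLaz (-0.052 to 0.266) in CBS-/-CSE-/-(2), for wrapper (-0.14 to 0.025) and Gli (-0.13 to 0.016) between double deletion and CBS-/-, and for Eaat1 between the double deletion strains (-0.298 to 0.000473).

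Genes of the 9 called higher than WT were 0 in CBS-/-(5), in place of 1, with no filter, length offsets or an adjusted p under 0.01, and 0 in all omissions of a library. In the fit of all 15 libraries they were 1 in CBS-/-(8) and 1 in CBS-/-CSE-/-(1), in place of 0. Omissions gave 0 to 1 in CBS-/-(8). Between the double deletion and CBS-/- the 2 called lower became 0 with no filter, the fit of all libraries, length offsets or an adjusted p under 0.01, and 1 with strains as separate groups, while omissions gave 0 to 3. The 1 called higher became 0 under the same settings except length offsets, under which loco was called (0.64, adjusted p = 0.0333), and omissions gave 0 to 1. DESeq2 called 1 lower, in place of 0, against CSE-/-, and 2 lower, in place of 0, in the interaction, where omissions gave 0 to 3. Scaling by RLE or by length moved the median of all genes by less than 0.1 in every comparison.

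With the replicate number as a block, 1 of the 9 genes, repo, was called higher in CBS-/-CSE-/-(1) against WT (0.70, adjusted p = 0.0230), in place of 0. The 2 same-numbered pairs of this comparison had r of 0.246 and 0.357. They are not independent, since the 2 WT libraries deviate from their mean by equal and opposite amounts. Between the double deletion and CBS-/- the block left 0 of the 9 genes called lower and 0 higher (adjusted p of 0.187 for moody, 0.152 for nrv2 and 0.215 for alrm), no gene of the wider lists, and 21 lower and 25 higher of all genes, in place of 1325 and 1226. There same-numbered libraries did not deviate together (r of -0.28 to 0.06, and 0 of 8 libraries correlated best with their own number), nor did they against CSE-/- (r of -0.50 to 0.02, 0 of 6). For CBS-/- against CSE-/- it was 4 of 5. For CBS-/-(5) and WT, r was -0.145, and the block called 977 lower and 495 higher, or 1289 and 921 with the numbers crossed, in place of 713 and 147. The block changed no other call of the 9 genes.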

Other observations

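NLaz, which encodes a secreted lipocalin, had 51.1, 78.7 and 85.9 CPM in CBS-/-CSE-/-(1), against 226 and 196 CPM in CBS-/-CSE-/-(2), a log2 difference of -1.54 ± 0.26 that did not pass the threshold (adjusted p = 0.0716, edgeR quasi-likelihood test). Gs1 differed between these strains by 0.98 ± 0.34 (adjusted p = 0.629).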
